A study of Homo sapiens with 8 samples.

Results

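Genes of polyamine metabolism were followed by ribosome profiling (Ribo-seq), which reads the stretches of mRNA covered by ribosomes at work. The 9 genes are ODC1, AMD1, SRM, SMS, SAT1, PAOX, OAZ1, OAZ2 and AZIN1. They were chosen by symbol, through the Ensembl identifier with its version ignored, out of 60651 identifiers in the deposited table. All 9 were found once. Although the set is named for polyamine synthesis, it holds 4 synthetic enzymes, 2 catabolic enzymes and 3 regulators of ODC1.

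The cells were IMR32, an established human neuroblastoma line with amplified MYCN, labelled as neuroblast in cell type and WT in genotype. In 4 libraries the cells had received CR31B, an analogue of silvestrol from the rocaglates, which clamp the RNA helicase eIF4A onto RNA, for 6 h. In the other 4 the cells had received the solvent DMSO (0.1%), also for 6 h. Cycloheximide was given to all cells before harvest, and fragments of 28 to 30 nt were isolated, so all 8 libraries share those steps and 1 cell line. The replicates are called biological in the series' text, which does not say how they were separated, so p-values measure only the spread between these libraries. No library of total mRNA was used here, and a change in footprints can therefore not be divided into mRNA amount and ribosome load per mRNA.

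Levels are given as TPM, a unit corrected for transcript length and brought to the same total in each library. One read on a transcript of 1000 nt was worth an estimated 0.0112 to 0.0233 TPM across the libraries, from the steps seen in low values. Protein-coding genes took 61.3% of TPM in CR31B replicate 1 and from 51.8% to 52.3% in the other CR31B libraries, against 52.1% to 58.4% in DMSO. All 10 adrenergic neuroblastoma markers had a mean of at least 1 TPM, with sums of 1266 to 1834 TPM in CR31B and 1164 to 1372 TPM in DMSO. Of 8 mesenchymal or Schwann-like markers, VIM, COL1A1 and FN1 reached that mean and PRRX1 was listed at 0 throughout. The sums of those 8 ran from 127 to 159 TPM in CR31B and from 115 to 171 TPM in DMSO. The 4 blood markers summed to at most 0.06 TPM in any library, with CD3E and HBB listed at 0.

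Polyamines are small positively charged molecules that bind RNA and DNA and are needed for growth. ODC1 (ornithine decarboxylase) makes putrescine, AMD1 (AdoMet decarboxylase) makes the aminopropyl donor, and SRM and SMS use that donor to make spermidine and spermine. Antizymes (OAZ1, OAZ2) bind ODC1 and send it to the proteasome, whereas the antizyme inhibitor AZIN1, a homologue of ODC1 without its activity, binds antizymes and so frees ODC1. The pathway senses its own product during translation: polyamines favour a ribosomal frameshift that completes the antizymes, and they stall ribosomes on short reading frames upstream of AMD1 and AZIN1. ODC1 is a known target gene of MYC and MYCN.

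Upstream reading frames and frameshift sites were read from GENCODE release 29 transcripts. Some are shown because footprints counted on these mRNAs can include ribosomes on such elements. The short reading frames before the main start are given below for AMD1 (chr6:110874770-110895713, plus strand) and ODC1 (chr2:10439968-10448504, minus strand), with the start and stop codons in capitals. The AMD1 frame starts at base 27 of its transcript and ends 289 bases before the main start. That of ODC1 starts at base 128, and a second upstream frame of 33 nt lies between it and the main start. The ODC1 frame shown was picked for its short length, and whether polyamines act on it was not tested. Upstream frames of AZIN1 are not printed.
AMD1: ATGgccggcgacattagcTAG
ODC1: ATGgcgacccgccggtgctataagTAG

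The frameshift sites of OAZ1 (chr19:2269509-2273490, plus strand) and OAZ2 (chr15:64687573-64703281, minus strand) follow as 75-base windows, with the last codon read in the first frame and the UGA stop in capitals.
OAZ1: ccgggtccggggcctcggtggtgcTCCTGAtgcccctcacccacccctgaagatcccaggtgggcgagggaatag
OAZ2: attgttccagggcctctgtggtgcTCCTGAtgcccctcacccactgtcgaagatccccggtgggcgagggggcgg

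The windows share 60 of 75 bases (80.0%), including 20 in a row from the capitals on. Without a frameshift, translation would stop after 68 codons in OAZ1 and after 32 codons in OAZ2, against 228 and 189 codons in the annotated frames. In both genes the annotated coding exons express the shift by leaving out the T of that TGA. How the authors' alignment treated footprints across that base is not given in the sources used here. Gene-level TPM also does not separate ribosomes before the shift from those after it.

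A stretch of ODC1 at chr2:10447987-10448056 (GRCh38.p14, minus strand) held a pair of E-boxes, the CACGTG motif that MYC family proteins bind, shown in capitals.
ODC1: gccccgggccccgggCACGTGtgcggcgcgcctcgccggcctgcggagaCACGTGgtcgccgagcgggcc

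It lies around an alternative RefSeq start and within a GENCODE intron, with no base in an exon. The motif reads the same on both strands. It was searched from 250 bases before to 50 after each start in RefSeq promoters, where 7 of the 9 genes had an entry. It was found in at least 1 promoter of ODC1 and of SRM. Over all genes, counted by promoter and not by gene, 7.26% of 35116 promoters held it. Its presence describes the sequence and says nothing about binding in these cells.

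In DMSO the order of levels by length-scaled TPM was OAZ2 (148 ± 25.7 TPM), AZIN1 (118 ± 13.6), OAZ1 (60.1 ± 4.63), ODC1 (58.3 ± 4.01), SMS (55.3 ± 6.51), SRM (18.6 ± 2.54) and AMD1 (6.37 ± 0.911; SD, n = 4 for each). The ranges of OAZ2 and AZIN1 overlapped, as did those of OAZ1, ODC1 and SMS, while SRM and AMD1 each lay apart from their neighbours. The order between genes depends on the length used for scaling. In the GENCODE transcripts used here, coding sequence took 1344 of 4721 nt in AZIN1 and 1383 of 2653 nt in ODC1. In CR31B the means were 146 ± 23.6 for AZIN1, 108 ± 34.0 for ODC1 and 97.8 ± 15.7 for OAZ2 (TPM, SD, n = 4 each), so that ODC1 moved from the fourth place in this order to the second. The ranges of these neighbours overlapped. SAT1 and PAOX were below 1 TPM in every library of both groups.

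**Figure D1:**
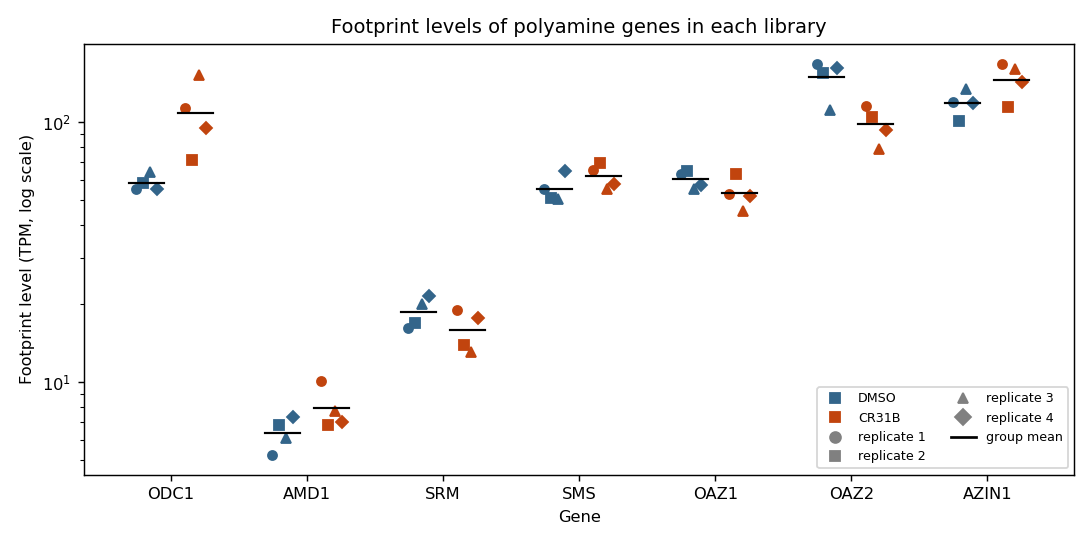
Footprint levels in TPM (log axis) of the 7 polyamine genes above the filter (a mean of 1 TPM or more), in 4 DMSO and 4 CR31B libraries; the symbol shape gives the replicate number and bars give group means. All CR31B points of ODC1 lie above all its DMSO points, from 71.4 TPM against at most 63.95 TPM, and no other gene shows separated groups.

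Of the 7 polyamine genes that could be tested, ODC1 was the one that passed the test, at 1.85 times its DMSO mean. It kept that call in 10 of 16 alternative fits, though some of these left out a group's library nearest the other group. The regulators of ODC1 had values in both directions, and none passed the test. OAZ2 was at 0.659 times its DMSO mean, OAZ1 at 0.886 times and AZIN1 at 1.23 times. The other synthetic enzymes AMD1, SRM and SMS stayed within 1.25 times of their DMSO means in either direction by estimate, and none of them passed. The test was limma on log2(TPM + 1) over the 11778 genes that averaged 1 TPM or more, with Benjamini-Hochberg adjustment over all of them and a threshold of 0.05. It called 1 of the 7 polyamine genes tested, where it called 7.46% of all genes tested 3.45% as higher and 4.02% as lower in CR31B, so the count of 1 is no result about the set as a whole. In bulk libraries, fewer cells carrying an mRNA and less of it per cell cannot be told apart. Of the 7 genes, 4 had a log2 fold change above 0 and 3 below, with a median of 0.16 against 0.029 over all genes tested, of which 54.1% lay above 0. Groups did not overlap for 1 of the 7, and for 16.2% of all genes tested.

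**Figure D2:**
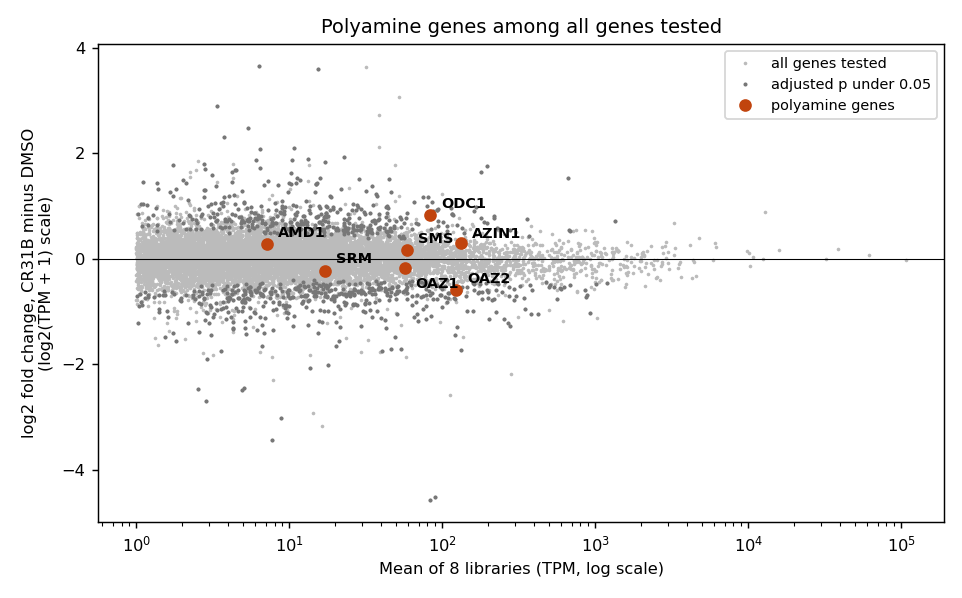
Log2 fold change (CR31B minus DMSO, on the log2(TPM + 1) scale) against the mean of the 8 libraries (TPM, log axis) for all 11778 genes tested, with the 7 polyamine genes in colour and genes with an adjusted p under 0.05 in dark grey. ODC1 at 0.83 passed the test, and the other 6, from OAZ2 at -0.59 to AZIN1 at 0.29, did not.

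ODC1 (ENSG00000115758.13), which commits ornithine to polyamines, had 112.9, 71.4, 152 and 95.1 TPM in the CR31B libraries, in the order of replicates 1 to 4. The DMSO libraries, in the same order used from here on, had 55.4, 58.4, 63.95 and 55.5 TPM. Every CR31B library lay above every DMSO library, and the CR31B libraries spread far more widely, with replicate 3 highest and replicate 2 lowest. The estimated log2 fold change of 0.83 (SE 0.20, with 0.39 to 1.26 as its 95% confidence interval) had an adjusted p of 0.0312 in limma. The exact permutation p was 0.0286, the smallest that 70 assignments of 4 and 4 libraries allow, two-sided. The values rest on an estimated 9059 to 18569 reads per library for a transcript of 2653 nt. The call was lost without CR31B replicate 1 or 4 or without DMSO replicate 1, 2 or 4 (limma adjusted p of 0.0675, 0.0614, 0.0789, 0.0741 and 0.0895), and without the filter on low values (0.119), where the log2 fold change ran from 0.79 to 0.87. The call was kept without CR31B replicate 2 or 3 (limma adjusted p of 0.00997 and 0.048) or DMSO replicate 3 (0.045). CR31B replicate 2 and DMSO replicate 3 lay nearest the other group, so leaving them out favours a lower p and is no support. After rescaling over protein-coding genes, which removes the differing coding share of the libraries, the log2 fold change was 0.86 (limma adjusted p of 0.0138).

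AMD1 (ENSG00000123505.19), whose product limits the supply of the aminopropyl donor, had 10.1, 6.86, 7.77 and 7.02 TPM with CR31B and 5.23, 6.83, 6.09 and 7.32 TPM with DMSO. CR31B replicate 1 was the highest library and the other 3 lay within or just above the DMSO range. The log2 fold change of 0.27 (95% confidence interval -0.064 to 0.61) did not pass (limma adjusted p of 0.312), on an estimated 1121 to 2164 reads per library.

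SRM (ENSG00000116649.10), spermidine synthase, had 18.9, 13.9, 13.0 and 17.7 TPM with CR31B and 16.1, 16.8, 19.97 and 21.5 TPM with DMSO. The groups overlapped, with CR31B lower in 3 of 4 same-numbered pairs. Its log2 fold change was -0.23 (interval at 95% confidence -0.56 to 0.11; adjusted p of 0.410 in limma). SMS (ENSG00000102172.16), spermine synthase, had 65.5, 69.4, 55.3 and 57.7 TPM with CR31B and 55.2, 51.2, 50.4 and 64.6 TPM with DMSO. Its groups overlapped too, and the log2 fold change was 0.16 (interval at 95% confidence -0.11 to 0.43; adjusted p of 0.470 in limma).

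OAZ1 (ENSG00000104904.12), the main antizyme in most tissues, had 52.9, 63.0, 45.4 and 51.8 TPM with CR31B and 62.9, 65.0, 55.1 and 57.5 TPM with DMSO. It was lower in CR31B in 4 of 4 pairs, although CR31B replicate 2 lay among the DMSO libraries. The log2 fold change was -0.18 (interval at 95% confidence -0.45 to 0.093; adjusted p of 0.421 in limma).

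OAZ2 (ENSG00000180304.14), another widely expressed antizyme, had 115, 104, 78.4 and 93.5 TPM with CR31B and 168, 154, 111 and 161 TPM with DMSO. Only CR31B replicate 1 reached above the lowest DMSO library, replicate 3, and each CR31B library was below its same-numbered partner. Its estimate of -0.59 on the log2 scale (SE 0.16, with -0.95 to -0.23 as the 95% confidence interval) came with a limma adjusted p of 0.0526 and an exact permutation p of 0.0571. It passed with the replicate number as a block (limma adjusted p of 0.00917), after rescaling over protein-coding genes (0.0166), after quantile normalization (0.0364) and when the filter was raised to 10 TPM (0.0399). It also passed without CR31B replicate 1 (0.0460) or DMSO replicate 3 (0.0203). Those libraries made the groups overlap, so leaving them out favours a lower p and is no support. In the other 10 of 16 alternatives OAZ2 did not pass, with limma adjusted p up to 0.155. Among these, leaving out any other library gave 0.075 to 0.146.

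AZIN1 (ENSG00000155096.14), which sequesters antizymes, had 167, 114, 160 and 142 TPM with CR31B and 119.9, 101, 134 and 118 TPM with DMSO. It was higher in CR31B in 4 of 4 pairs, while CR31B replicate 2 lay inside the DMSO range. The log2 fold change was 0.29 (95% confidence interval -0.028 to 0.61) with a limma adjusted p of 0.257, and 0.0738 with the replicate block, so no change was called under either.

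The catabolic enzymes did not reach the filter of 1 TPM. SAT1 (ENSG00000130066.16), the acetyltransferase that opens polyamine breakdown, had 0.53, 0.23, 0 and 0.23 TPM with CR31B and 0.48, 0.24, 0.81 and 0.55 TPM with DMSO, an estimated 0 to 46 reads. PAOX (ENSG00000148832.16), which oxidises acetylated polyamines, was listed at 0 in 3 CR31B libraries and in 1 DMSO library, with at most 0.18 TPM elsewhere, an estimated 18 reads or fewer. Without the filter neither passed (limma adjusted p of 0.525 for SAT1 and 0.693 for PAOX), in a fit under which ODC1 did not pass either.

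Ratios between genes within a library compare the members with each other. A ratio of TPM does not move with the library's total, but the 1 TPM added here shifts it somewhat where a gene is low, as AMD1 is. For 6 pairs fixed by role, log2 ratios of TPM + 1 were compared by the two-sided exact permutation test and adjusted over the 6; ODC1 enters 3 of them and OAZ1 also 3, so they are not independent. The AZIN1 to ODC1 ratio was 0.56, 0.67, 0.074 and 0.57 on the log2 scale in CR31B replicates 1 to 4. In DMSO it was 1.10, 0.78, 1.06 and 1.07. All DMSO libraries lay above all CR31B libraries. By length-scaled TPM, AZIN1 stood at a geometric mean of 2.00 times ODC1 in DMSO and 1.38 times in CR31B. The log2 difference was -0.54 (exact permutation p of 0.0286, adjusted 0.0686).

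The ODC1 to OAZ1 ratio was 1.08, 0.18, 1.72 and 0.86 on the log2 scale in CR31B and -0.18, -0.15, 0.21 and -0.050 in DMSO. By length-scaled TPM, ODC1 and OAZ1 were thus near parity in DMSO, at a geometric mean ratio of 0.971. ODC1 was at 1.95 times OAZ1 in CR31B. Estimated reads were not at parity, with 9059 to 18569 per library on the longer ODC1 transcript and 2245 to 6694 on OAZ1. CR31B replicate 2 lay just below DMSO replicate 3, the one overlap (exact permutation p of 0.0571, adjusted 0.0686). The AMD1 to ODC1 ratio went from a log2 mean of -3.01 ± 0.209 in DMSO to -3.57 ± 0.404 under CR31B (SD, n = 4 each). The groups did not overlap on this scale (exact permutation p of 0.0286, adjusted 0.0686). At a pseudocount of 0.1 they did overlap, with a log2 difference of -0.53 (exact permutation p of 0.0857), so the separation depends on the added constant.

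Between the antizymes, the log2 ratio of OAZ2 to OAZ1 was 1.27 ± 0.212 in DMSO and 0.861 ± 0.171 in CR31B (SD, n = 4 each), lower in 4 of 4 pairs (exact permutation p of 0.0571, adjusted 0.0686). SMS to SRM differed by 0.39 (exact permutation p of 0.0571, adjusted 0.0686) and AZIN1 to OAZ1 by 0.47 (exact permutation p of 0.143, adjusted 0.143). None of the 6 ratios passed 0.05 after adjustment, in a design whose smallest unadjusted p is 0.0286.

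**Figure D3:**
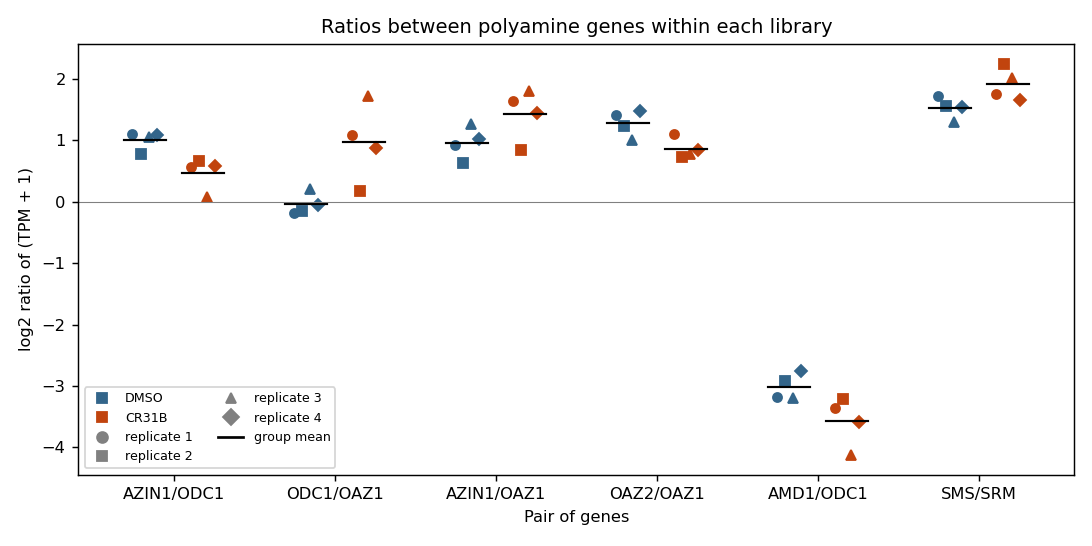
Log2 ratios of TPM + 1 between pairs of polyamine genes within each library, 4 DMSO and 4 CR31B; symbol shapes give the replicate number and bars the group means. The groups are separated for AZIN1/ODC1 and, at this pseudocount but not at 0.1, for AMD1/ODC1, and they overlap for the other 4 pairs.

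The 5′ untranslated regions (5′ UTRs) of the 9 genes differ widely, a property of interest because eIF4A unwinds them and rocaglates clamp it on purine-rich RNA. One GENCODE coding transcript was taken per gene and set beside 9827 tested coding genes. ODC1, the gene that passed the test, had 511 nt with 69.5% GC, a pair of upstream AUGs and 5 runs of at least 6 purines. Over all genes the median length was 202 nt (quartiles 108 and 342), the median GC was 66.7%, 53.4% held an upstream AUG and 25.2% held 5 or more such runs. AZIN1 was the longest at 1164 nt, with 6 upstream AUGs and 11 purine runs. AMD1 had 336 nt with the lowest GC of the 9, 44.05%, and 7 purine runs of which the longest spanned 15 bases.

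OAZ2 had 233 nt with 73.4% GC and 2 purine runs. OAZ1, SRM and PAOX had 79, 81 and 83 nt with no upstream AUG, and SRM, SMS and PAOX held no purine run of that length. In all, 6 of the 9 held an upstream AUG and 6 held a purine run, which 80.2% of all genes held. AGAGAG or GAGAGA, searched on the mRNA strand and allowed to overlap, was found in OAZ1 and AZIN1 and in 14.5% of all genes. Of the 7 tested, AZIN1, ODC1 and AMD1 had the longest 5′ UTRs and the highest counts of purine runs. Their log2 fold changes were 0.29, 0.83 and 0.27, of which only that of ODC1 passed the test. The short OAZ1 and SRM had -0.18 and -0.23. SMS, with 252 nt and no purine run, had 0.16. OAZ2, also above the median length, had the lowest value of -0.59, so the values did not follow 5′ UTR length throughout. Nor did they follow the number of purine runs relative to 5′ UTR length. Among the 7 tested, that density was highest in AMD1 and next in OAZ1. It was lower in ODC1 and AZIN1, with OAZ2 close below them. These are annotated transcripts and not the 5′ ends used in IMR32 cells, and the members are too few for a test.

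Of 30 further genes around the pathway, 21 were tested and 1 passed, higher in CR31B, which is near the 7.46% called among all genes tested. Of the 21, 10 had a log2 fold change above 0 and 11 below, with a median of -0.029 against 0.029 over all genes tested. The gene that passed was SLC3A2, the heavy chain of amino acid exchangers that has also been linked to polyamine export. It had 202, 153, 146 and 149 TPM with CR31B and 129.6, 109, 107 and 113 TPM with DMSO, with no overlap. Its log2 fold change was 0.49 (SE 0.13, limma adjusted p of 0.0488), and the call was lost when any 1 of the 8 libraries was left out (0.0610 to 0.124), at a pseudocount of 0.1 (0.0509), without the filter (0.114) or without the variance trend (0.0637). Its log2 fold change stayed between 0.38 and 0.55 in all these, and it passed at 0.52 after rescaling over protein-coding genes (limma adjusted p of 0.00482) and at 0.51 after quantile normalization (0.00976). With the replicate block 4 of the 21 passed, against 12.3% of all genes tested: SLC3A2, the arginine transporter SLC7A1 and methionine synthase MTR were higher, and EIF5A was lower. SLC7A1 and MTR were singled out here after their values were seen.

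By role, none of 4 tested enzymes and regulators passed, with log2 fold changes from -0.15 to 0.26. SMOX, spermine oxidase, averaged 4.73 ± 1.73 TPM with CR31B and 4.63 ± 2.52 TPM without it (SD, n = 4 each). None of 4 tested hypusine genes passed. EIF5A, the translation factor that carries hypusine, a residue made from spermidine, had the highest TPM of the polyamine and related genes. It has near-identical copies in the genome, EIF5AL1 among them (at most 0.05 TPM), and how the authors' counting divided reads between them is not given in the sources used here. EIF5A had 1016, 893, 826 and 832 TPM with CR31B and 1232, 1170, 1006 and 1169 TPM with DMSO, lower in 4 of 4 pairs, with 1 CR31B library above the lowest DMSO library. Its log2 fold change was -0.36 (limma adjusted p of 0.114, and 0.0403 with the replicate block). EIF5A2 and the modifying enzymes DHPS and DOHH ran from -0.066 to 0.13.

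Of 4 transporters tested, ATP13A3, an endosomal polyamine transporter, had 4.58, 4.25, 9.70 and 5.93 TPM with CR31B and 10.5, 12.99, 9.80 and 8.89 TPM with DMSO. CR31B replicate 3 alone reached the DMSO range, and the log2 fold change was -0.75 (SE 0.22, limma adjusted p of 0.0653). ATP13A3 passed in 2 of 15 alternatives, after quantile normalization (0.043) and without CR31B replicate 3 (0.0120). Leaving out that overlapping library favours a lower p and is no support. In the remaining alternatives the limma adjusted p ran up to 0.205. None of 9 tested genes of the methionine cycle and salvage passed. MAT2A, which makes AdoMet, had a log2 fold change of -0.22 (limma adjusted p of 0.636) and MTAP, which recycles the by-product of spermidine synthesis, one of 0.12 (0.714), with the sign of MTAP turning without CR31B replicate 1 (-0.021). The sign of SMOX, at 0.079, turned without CR31B replicate 1 or 3 or without DMSO replicate 1 or 4 (from -0.17 to -0.018).

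**Figure D4:**
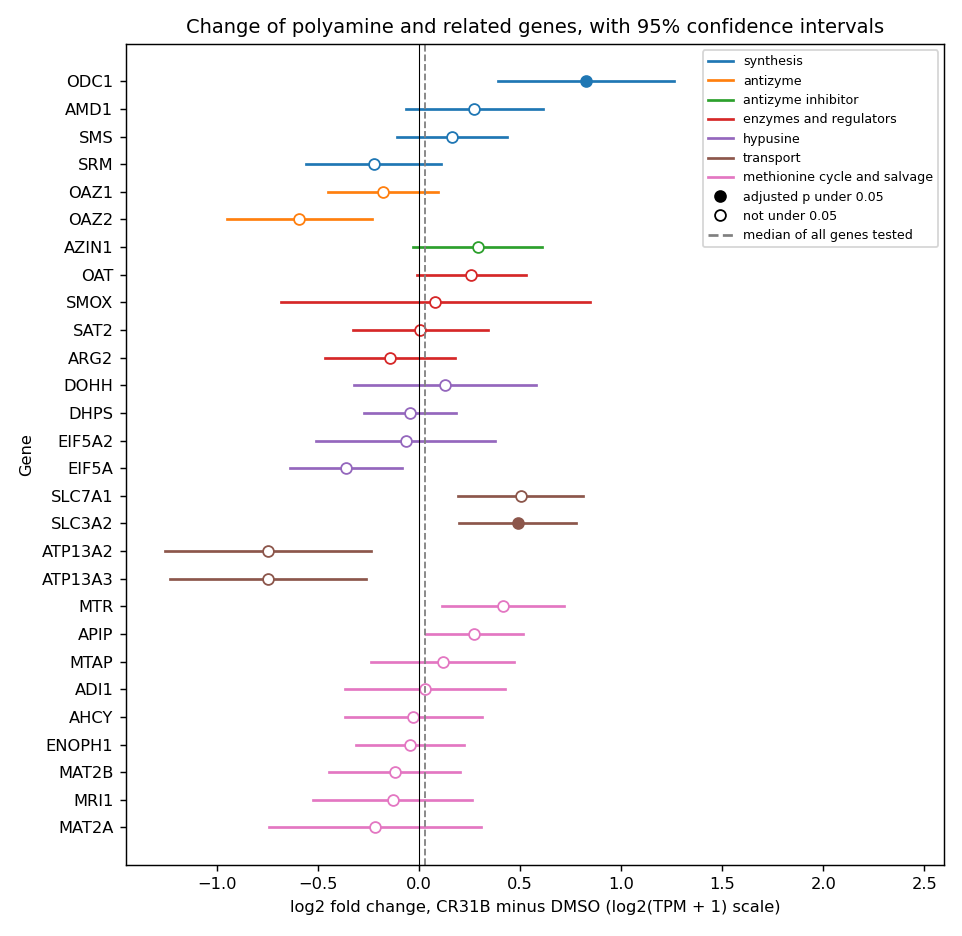
Log2 fold change (CR31B minus DMSO, on the log2(TPM + 1) scale) with 95% confidence intervals for the 7 tested polyamine genes and 21 tested related genes, coloured by role; filled points have a limma adjusted p under 0.05 and the dashed line is the median of all genes tested, 0.029. Only ODC1 and SLC3A2 are filled.

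The genes whose levels followed ODC1 most closely over the 8 libraries were sought among 5612 genes averaging 10 TPM or more. ZFP62, PMAIP1 and FEV came first, with Pearson correlations of log2(TPM + 1) of 0.98, 0.98 and 0.97 (n = 8 libraries) and log2 fold changes of 0.52, 0.59 and 0.73. For OAZ1 they were GNG5, STX12 and DPY30, at 0.94, 0.93 and 0.92, with log2 fold changes of -0.24, -0.19 and -0.27. All points share the treatment groups and the library totals, and these correlations are descriptions.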

How the data were processed

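The authors deposited 1 table of TPM for 60651 versioned Ensembl genes in 8 Ribo-seq libraries (4 CR31B, 4 DMSO). The submitters' processing notes name cutadapt 3.2, Bowtie2 2.3.4.1, STAR 2.7.1a, RSEM 1.2.28 and DESeq2 1.32.0 and the builds hg38 and GRCh38, without their roles. Annotation and strand setting are not given in the sources used here.

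Columns were matched to libraries by title, with none left over, and 60481 identifiers had a symbol. The 11778 genes averaging 1 TPM or more were fitted as log2(TPM + 1) with limma 3.58.1 (R 4.3.3; eBayes with a trend, treatment as the only term), with Benjamini-Hochberg adjustment over all genes tested. The fit was tested on simulated data. Fold changes understate low genes. Gene models and transcripts came from GENCODE 29, promoters from RefSeq (GRCh38.p14). Reads were estimated from the steps of low values in genes with 1 short transcript.

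The members and lists were chosen with earlier results of these data known. Named genes are the 9 members, related genes with an adjusted p under 0.05, and EIF5A, SMOX, MAT2A, ATP13A3 and MTAP. Same-numbered libraries deviated together across genes after the group means were removed, with correlations of 0.333, 0.324, 0.301 and 0.105 for replicates 1 to 4. Different-numbered libraries had correlations from -0.206 to 0.134. The highest of these, between CR31B replicate 4 and DMSO replicate 1, exceeded that of the replicate 4 pair, which is therefore not clear. The numbers were treated as pairs in an alternative fit only. Python 3.11.15 served for the other steps.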

Additional observations from a re-analysis of the deposited data

Results flagged for a closer look

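Of 38 sets of 4 libraries looked at, 2 had 1 library standing well apart, where chance alone gives 1.9 (about 1 in 20). For SLC3A2 it was CR31B replicate 1, with 202 TPM where the other 3 had 146 to 153 TPM. Protein-coding genes took 61.3% of TPM in that library and at most 52.3% in the others treated with CR31B, and the part of that share in the SLC3A2 value was not tested. For the log2 ratio of AZIN1 to ODC1 it was DMSO replicate 2, with 0.779 where the other 3 had 1.06 to 1.10. The highest CR31B value of that ratio was 0.665.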

How the results depend on the processing

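No polyamine gene tested and none of the 6 ratios changed direction under any alternative run. ODC1 kept its call in 10 of 16 alternatives and OAZ2 gained one in 6 of 16. For both genes some of these fits left out a group's library nearest the other group, which favours a lower p and is no support. Without a filter ODC1 stayed at 0.83 but did not pass. OAZ2 passed at -0.59 with the replicate block and with a mean of at least 10 TPM, at -0.56 over protein-coding genes and at -0.57 after quantile normalization. Leaving out 1 library, ODC1 ran from 0.64 to 1.004 and OAZ2 from -0.73 to -0.49. The replicate block changed no other call among the 7 genes tested, and its sign-flip test of the ratios cannot go below 0.125.

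Of the polyamine genes, 0 passed without a filter and 2 with a mean of at least 10 TPM, the replicate block, protein-coding rescaling or quantile normalization (0 to 2 leaving out 1 library). Of the related genes, 0 passed at a pseudocount of 0.1, without a filter or without the variance trend, 2 with a mean of at least 10 TPM, 4 with the block, 5 over protein-coding genes and 3 after quantile normalization (0 to 2 leaving out 1 library). Over all genes, 442 passed without a filter (181 higher, 261 lower) and 1453 with the block (680 higher, 773 lower); over protein-coding genes 674 were higher and 566 lower, so that 54.4% of calls were higher, against 46.2% as reported. Leaving out 1 library gave 404 to 785 genes (197 to 395 higher, 207 to 487 lower), lowest without DMSO replicate 4. Among named related genes, SMOX reversed to -0.034 and -0.018 without CR31B replicates 1 and 3 and to -0.17 and -0.047 without DMSO replicates 1 and 4, and MTAP to -0.021 without CR31B replicate 1; leaving out 1 library gave at most 0.34 for SMOX and 0.25 for MTAP, both without CR31B replicate 4. The cause was not tested. AMD1/ODC1 lost its separation at a pseudocount of 0.1 (-0.53, exact permutation p of 0.0857). SAT1 and PAOX rest on few estimated reads, at most 46 and 18.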

Other observations

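Reads of the members may be shared with other annotated genes. The table lists 11 annotated copies of member genes, of which the highest, AMD1P3, reached 0.14 TPM in any library. OAZ1 exons overlap JSRP1 on the opposite strand (0.1 to 1.02 TPM) and a coding gene without a symbol on the same strand (0.06 to 2.87 TPM). AZIN1 exons overlap the antisense gene MAILR (0 to 0.42 TPM), and those of OAZ2 an antisense gene listed at 0 in all 8 libraries. Each of these is low beside the member it overlaps. PAOX exons overlap a coding gene on the same strand (0 to 0.46 TPM), which reached above PAOX itself (at most 0.18 TPM). No such overlap was annotated for ODC1, AMD1, SRM, SMS or SAT1.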
